A study of Terfezia claveryi
Helianthemum almeriense and Terfezia claveryi with 9 samples.

Results

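The 110 gene models described here are fungal genes of the desert truffle Terfezia claveryi, read at a high level in cultured mycelium. In mycorrhizal roots their mean level was at least 8-fold lower, whatever the watering. They were chosen by measured levels in all 9 libraries, out of 12765 gene models. The measure was CPM, the reads of a gene model per 1000000 gene reads of its library. The mean over cultures had to be at least 20 CPM and at least 8 times the mean of drought roots and of well-watered roots, and the lowest culture had to lie above the highest of the 6 root libraries. Of all gene models, 5965 reached 20 CPM in cultures, 186 of these met the 8-fold condition for drought roots, 218 met it for well-watered roots, and 111 met both. The condition on overlap removed 1 of the 111, which stood at 2.19, 0 and 3.44 CPM in drought roots, 12.0, 0 and 0 CPM in well-watered roots and 81.0, 9.61 and 10.2 CPM in cultures.

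The study sequenced groups with 3 libraries each. Drought-stressed mycorrhizal plants and well-watered mycorrhizal plants were Helianthemum almeriense, a Mediterranean shrub, given a spore solution of the truffle; 3 months later soil moisture was lowered to 40% for the drought plants, until shoot water potential fell below -2 MPa, or kept above 75%, and secondary and tertiary roots were taken. Free-living mycelium was strain T7, the only strain named, grown in MMNo medium in shaken flasks (75 rpm, dark, 23 °C) for 3 months. The design calls the 3 libraries of a group biological replicates, and p-values measure the spread between these libraries. Roots were inoculated with spores and cultures came from 1 strain, so a gene that is silent in the roots and a gene that is missing from the fungi growing there cannot be told apart, and in such bulk samples neither can fewer fungal cells of one kind and less RNA per cell.

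Desert truffles are ascomycetes that fruit underground in dry soils and live with rockrose relatives in an ectendomycorrhiza, in which hyphae surround the root, grow between its cells and also enter them. In culture the same fungus grows without a host, feeding on the sugars of the medium, whereas in the root it is fed by the plant. Mycorrhizal fungi are known to run different sets of genes in these states, for example for nutrient uptake, for cell walls and for secreted proteins.

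The files name gene models by Tercla1 identifiers and pair them with no gene name or product. The role of single genes is therefore not given, no list of pathway genes was applied, and the labelled tissues were not checked against marker genes. Gene models are instead described by length, level and pattern.

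Fungal depth differed between the groups, with 3493361 to 5470044 gene reads per drought library, 869998 to 1635015 per well-watered library and 15855363 to 31854784 per culture. Together the 110 members took 0.0887 ± 0.00800% of the gene reads in drought roots, 0.0836 ± 0.0139% in well-watered roots and 2.18 ± 0.0432% in cultures (SD, n = 3 each). In reads, that was 2841 to 5252 per drought library, 588 to 1493 per well-watered library and 337554 to 699688 per culture. The drought and well-watered shares lay within each other's spread. The low shares in roots and the high share in cultures follow from the choice of members. A pair of root libraries stood apart in how many members had no read, drought replicate 2 with 64 and well-watered replicate 2 with 24, against 39 to 51 in the other root libraries.

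**Figure D1:**
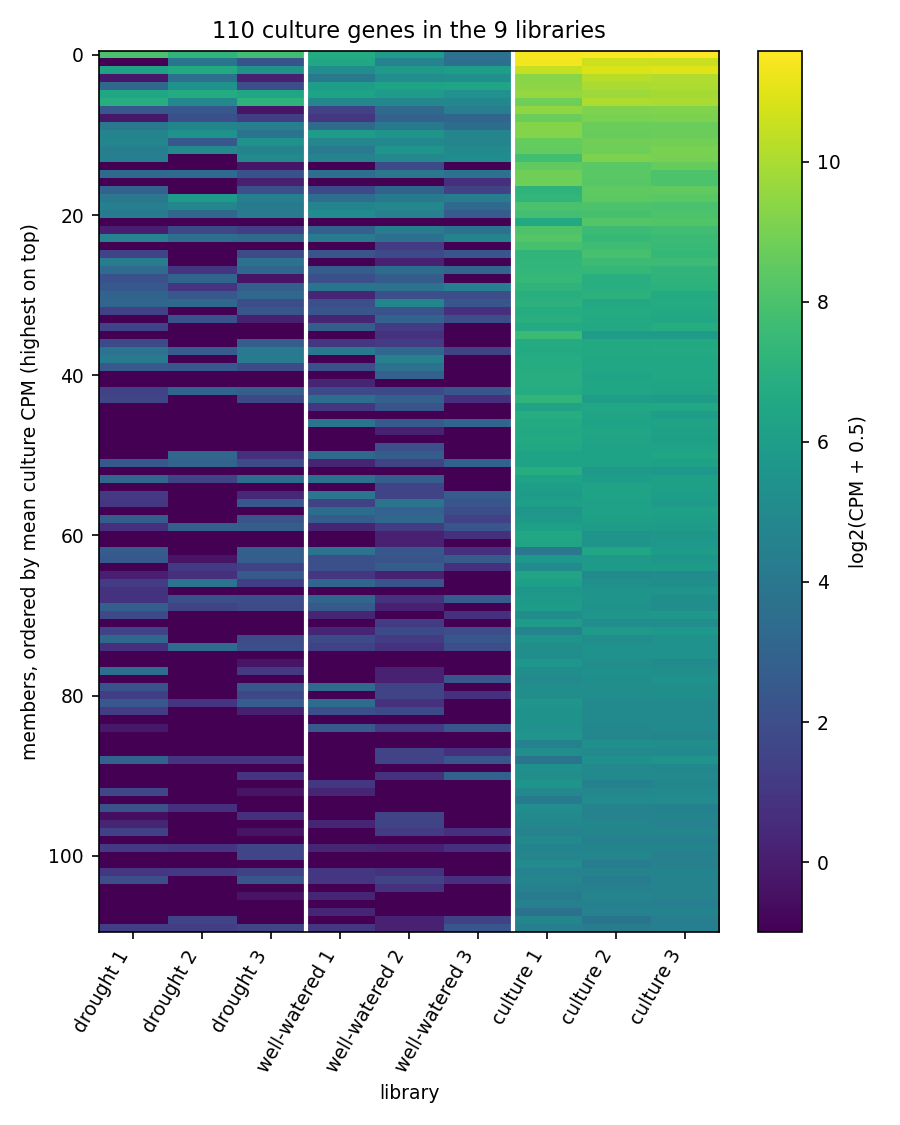
Level of each of the 110 members (rows, highest mean culture CPM on top) in the 9 libraries (columns), as log2(CPM + 0.5); white lines part drought roots, well-watered roots and cultures. The 3 cultures are bright from top to bottom, while the root columns hold many members at 0, 64 of them in drought replicate 2 and 24 in well-watered replicate 2.

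The gene models just inside and just outside the conditions differed little. The 3 members nearest the level of 20 stood at 20.3, 20.3 and 20.5 CPM in cultures, and the 3 nearest models left out for their level stood at 19.9, 19.9 and 19.6 CPM. The smaller of the 2 ratios of cultures to roots was 8.09, 8.16 and 8.30 in the members nearest the limit, and 7.93, 7.92 and 7.85 in the nearest models outside it.

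In the edgeR quasi-likelihood test all 110 members passed as lower in drought roots than in cultures, where 21.8% of all tested gene models did, and all 110 as lower in well-watered roots than in cultures, where 24.5% did (adjusted p under 0.05). These contrasts are the ones that chose the members, so nothing is read from the counts. Ratios of culture to root were wide. Against drought roots the ratio of mean CPM ran from 8.09 to 3760 in the 79 members with a drought read, with a median of 45.9 over all members when those without a read are set to their lower bound (a floor of 3 reads over the group). Against well-watered roots it ran from 8.16 to 899 in the 93 members with a read there, with a median of 29.3 over all members on the same terms.

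Levels in cultures spanned more than the rule required. Measured in the authors' deposited RPKM (reads per kilobase of gene model, scaled for depth), which allows genes to be compared per length, the members had a median of 53.9 in cultures, with a range of 8.67 to 2436, against a median of 49.5 for all 5965 models of at least 20 CPM. Of the 110 members, 35 reached 100 RPKM, 12 reached 500 and 4 reached 1000.

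The member with the highest level per length in cultures was jgi|Tercla1|1211419| (725 bases), the gene model at place 24 of all 12765 by culture RPKM. It had 106, 136 and 58.4 RPKM in drought roots, 48.6, 75.1 and 88.8 RPKM in well-watered roots and 1968, 2574 and 2767 RPKM in cultures. The drought and well-watered libraries overlapped, and every root library lay more than 10-fold below every culture. Between drought and well-watered roots its log2 fold change was 0.34 ± 0.40 (SE; edgeR adjusted p = 0.595), so a difference was not detectable beside the spread of the libraries.

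The next by level was jgi|Tercla1|815465| (1999 bases), at place 47 in cultures. It had 126, 74.1 and 106 RPKM in drought roots, 53.3, 29.4 and 6.33 RPKM in well-watered roots and 1348, 1462 and 1537 RPKM in cultures. Its drought libraries all lay above its well-watered libraries. The log2 fold change of drought against well-watered roots was 1.65 ± 0.54 (SE) with an edgeR adjusted p of 0.0583, short of the threshold. The adjusted p was 0.0193 in the DESeq2 Wald test, 0.0407 in a joint fit of all 9 libraries, 0.0469 on total reads without TMM scaling, 0.0412 at equal depth, and 0.0328 and 0.0416 without well-watered replicate 1 and drought replicate 2. Under the other alternatives it ran from 0.0511 to 0.162.

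The shortest member, of 297 bases, was also among the 4 above 1000 RPKM in cultures. It had 9.32, 10.2 and 4.01 CPM in drought roots, 11.2, 15.3 and 12.6 CPM in well-watered roots and 464, 326 and 272 CPM in cultures. The longest, of 11931 bases, had 2.38, 0 and 3.15 CPM in drought roots, 4.50, 3.06 and 4.60 CPM in well-watered roots and 150, 238 and 165 CPM in cultures. Both kept a trace of reads in most root libraries, and in both the drought values overlapped the well-watered values or lay just below them. The middle 50% of members were 777 to 1654 bases long, with a median of 1189 bases, below the median of 1488 bases over the 5965 models of at least 20 CPM. The median was 1356 bases in the 75 models that met the 8-fold condition in drought roots but not in well-watered roots, and 1061 bases in the 107 models with the reverse.

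Low in roots was relative to cultures and did not mean silent there. The highest mean of a member was 204 CPM in drought roots and 74.4 CPM in well-watered roots. Medians per library over the members were far lower, at 0 to 1.57 CPM in drought roots and 1.15 to 2.45 CPM in well-watered roots. Over the 5965 models of at least 20 CPM they were 68.9 to 73.4 CPM and 55.7 to 63.0 CPM there. Low medians of the members follow from their choice. Of the 110 members 97 had at least 1 read in a root library, 75 had reads in both root groups and 31 had reads in all 6 root libraries. Reads in every remaining root library were found for 42 members without drought replicate 2 and for 31 without well-watered replicate 2. The 31 include 14 of the 20 members with the highest RPKM in cultures; their median level was 10.04 RPKM in drought roots, 16.2 RPKM in well-watered roots and 227 RPKM in cultures. No root read was found for 13 members, which is below 3 reads or 0.184 CPM over the 6 root libraries (0.276 CPM without drought replicate 1, the deepest of them). There were 22 such members without well-watered replicate 2 and 13 without drought replicate 2, and with a limit of 50 CPM in cultures 4 of the models chosen had no root read. The 13 were 378 to 2922 bases long, held 1676 to 19497 reads over the 3 cultures, and had a median of 26.5 RPKM there (range 8.67 to 229). Such floors cover counting error only, because PCR copies of a molecule were not told apart.

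Among these 13, the highest levels per length were those of jgi|Tercla1|1281898| and jgi|Tercla1|1279069|, both 378 bases long. The first had 0 reads in all drought libraries, 0 in all well-watered libraries and 298, 213 and 176 RPKM in cultures. The second had 0 reads in the same 6 libraries and 270, 212 and 187 RPKM in cultures. For both, 100% of the reads were counted by the authors as not unique to the gene model, so the level of each is uncertain, and reads of near-identical copies cannot be assigned.

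Shared reads were more frequent among the members than over all models of at least 20 CPM, though not among the members alone. More than 50% of the reads were shared for 12 of the 110 members (10.9%), against 209 of all 5965 models of at least 20 CPM (3.50%), and 4 of the 12 belong to the 13 without root reads. A further pair of members of equal length, 1913 bases, also had 100% of their reads shared, and stood at 25.04, 25.2 and 24.9 CPM and at 23.4, 24.6 and 25.5 CPM in the 3 cultures. No shared read was counted for 78 members (70.9%), against 86.4% of the 5965 models. Of the 75 models low in drought roots alone, 7 had more than 50% of their reads shared (9.33%) and 78.7% had no shared read. For the 107 models low in well-watered roots alone it was 5 (4.67%) and 74.8%. When the rule was applied to unique reads alone, 105 models met it, all but 4 of them among the 110.

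The number of members without a read differed between root libraries, and depth ordered it within well-watered roots but not within drought roots or between the groups. There were 42, 64 and 39 members at 0 in the 3 drought libraries, and 40, 24 and 51 in the 3 well-watered libraries, although the drought libraries are the deeper ones. Well-watered replicate 2 is the deepest of its group, at 1635015 reads, and well-watered replicate 3 the shallowest, at 869998. With every library thinned to 869998 reads the numbers were 53, 70 and 52 in drought roots and 49, 34 and 51 in well-watered roots. Drought replicate 2 had the most members at 0 and well-watered replicate 2 the fewest, with and without thinning. Over all models of at least 20 CPM in cultures the same libraries stood at the ends. There, 2.13% were at 0 in drought replicate 2 and 0.503% in well-watered replicate 2, against 0.721 to 1.54% in the other root libraries. After thinning it was 2.46% and 0.855%, against 1.11 to 1.54%. The place of these libraries was therefore not particular to the members.

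**Figure D2:**
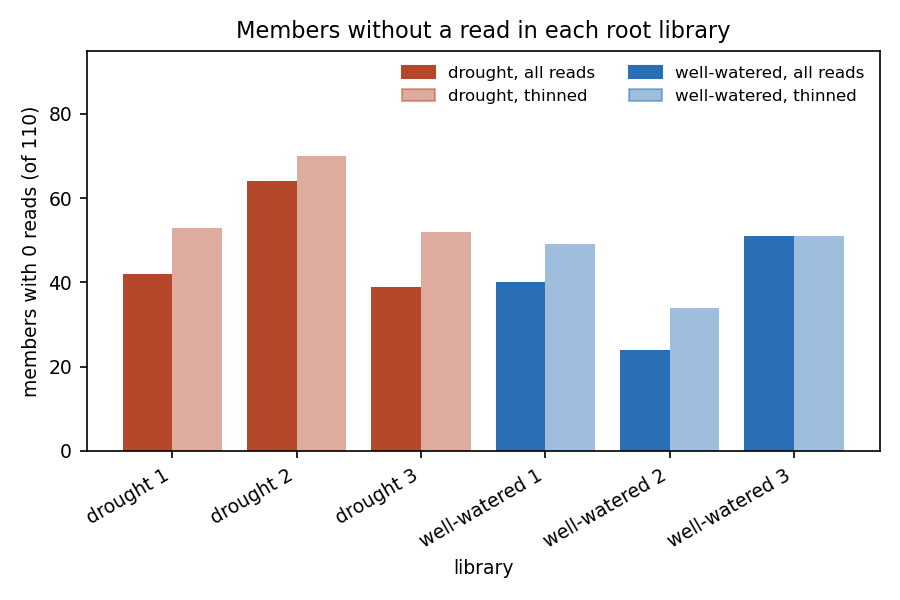
Number of the 110 members with 0 reads in each root library (bars; drought libraries red, well-watered libraries blue), from all reads (dark) and after thinning every library to 869998 reads (pale). Drought replicate 2 stands highest, at 64 and 70, and well-watered replicate 2 lowest, at 24 and 34.

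A group of 14 members had no read in drought replicate 2 but at least 10 in both other drought libraries. They were 14 of the 40 members with 10 reads in both others (35%), against 65 of 5855 models with 10 reads in both others among those of at least 20 CPM (1.11%). At a minimum of 20 reads the shares were 4 of 23 members and 0.641% of such models, and after thinning 3 of 15 members and 0.455%. Most members are far lower in roots than those models, and a 0 lowers the drought mean and so helps a gene model to meet the rule. With the rule applied to the 8 libraries without drought replicate 2, which leaves that library unused, the count was 11 of 38 (28.9%). The same count was 1 of 26 for drought replicate 1 and 0 of 25 for drought replicate 3, each with its library left out of the rule.

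The clearest case was a member of 4459 bases, chosen after its values were seen. It had 116, 0 and 107 reads in the drought libraries, 32, 49 and 30 in the well-watered libraries, and 3520, 17204 and 15396 in cultures. At the rate of the other drought libraries, 88.2 reads would fall in drought replicate 2, which had none. A member of 2140 bases had 104, 0 and 45 reads in drought roots, 0, 1 and 0 in well-watered roots and 2423, 6268 and 6002 in cultures. All 14 had a read in at least 1 well-watered library. Among the 75 models that met the 8-fold condition in drought roots but not in well-watered roots, which a 0 in drought replicate 2 also helps to choose, it was 15 of 57 (26.3%). Among the 107 that met it in well-watered roots but not in drought roots, it was 4 of 104 (3.85%).

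Well-watered replicate 2, the deepest of its group, stood apart in the other direction. It was the only well-watered library with a read for 14 members, at a median of 3 reads (range 1 to 36), against 5 members for well-watered replicate 1 and 1 member for well-watered replicate 3. After thinning the numbers were 14, 4 and 5. Of all gene models with a read, 388 were read in well-watered replicate 2 alone of its group, 267 in well-watered replicate 1 alone and 167 in well-watered replicate 3 alone, or 328, 261 and 222 after thinning, so the same library was the highest there. With each library left out of the rule in turn, 14 of the 31 models at 0 in both other well-watered libraries had a read in well-watered replicate 2, 6 of 23 in well-watered replicate 1, and 1 of 18 in well-watered replicate 3.

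This library also carried a difference between the watering regimes. There were 4 members with a read in drought roots and none in well-watered roots (under 0.781 CPM by the 3-read floor, or 1.20 and 1.36 CPM without well-watered replicates 1 and 2), and 18 members with none in drought roots (under 0.240 CPM, or 0.426 CPM without drought replicate 1) and a read in well-watered roots. The drought libraries are the deeper ones, and at equal depth 3 members were read in drought roots only and 22 in well-watered roots only. Of all gene models, 542 were read in drought roots only and 370 in well-watered roots only, or 473 and 503 at equal depth. But 9 of the 18 members were read in well-watered replicate 2 alone, 13 of the 18 had 5 or fewer reads in all, and without well-watered replicate 2 there were 9 members on each side, or at equal depth 7 read in drought roots only and 12 in well-watered roots only. The 4 members on the drought side had 1 to 25 reads, and were 2 without drought replicate 3.

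**Figure D3:**
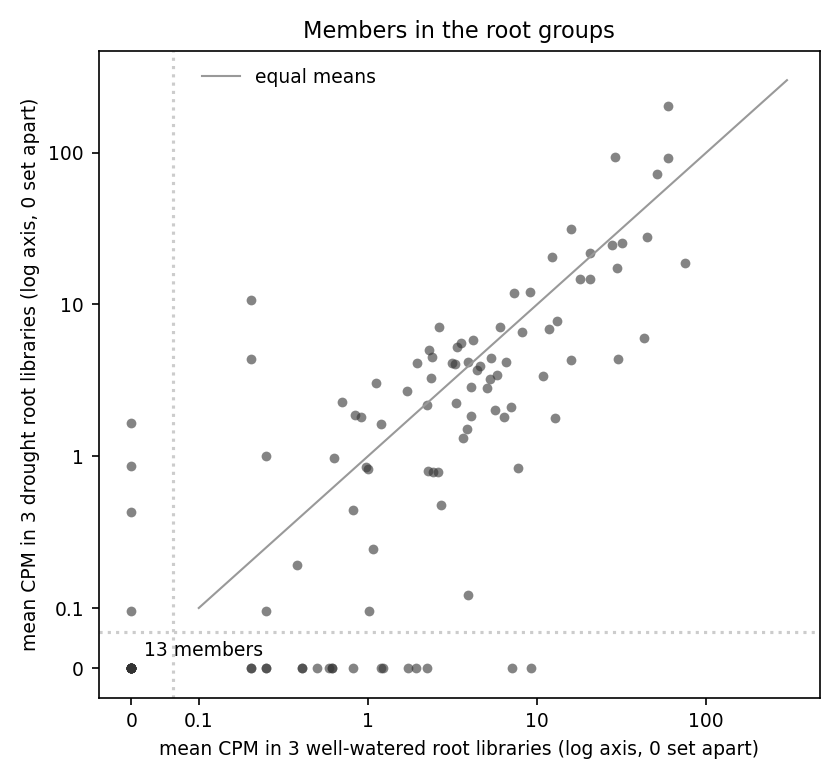
Mean CPM of each of the 110 members over 3 drought libraries (vertical axis) and over 3 well-watered libraries (horizontal axis), both logarithmic, with members at 0 set apart beyond the dotted lines. The 4 members along the left edge were read in drought roots only, the 18 along the bottom in well-watered roots only, and 13 share the corner at 0.

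Drought roots were set against well-watered roots to see whether the members differ with the water supply of the host. The choice of members did not use this contrast, although it keeps both root means at least 8-fold below the culture mean. Only 41 of the 110 members passed the filter on low counts. Of these, 0 passed the test as higher and 2 as lower in drought roots (4.88% of the 41), against 19.8% of all 8029 gene models tested (edgeR quasi-likelihood test, adjusted p under 0.05). At an unadjusted p under 0.05 there were 2 higher and 6 lower, and 2718 of all models. The DESeq2 Wald test called 2 higher and 5 lower (17.1% of the 41, against 24.9% of all models), limma-voom 0 higher and 3 lower (7.32% against 16.6%), and edgeR on total reads without TMM scaling 2 higher and 1 lower (7.32% against 20.3%). The median log2 fold change of the 41 was -0.44, against 0.08 for all tested models, and the members lay 0.52 below that median with TMM scaling and with total reads alone, under which the medians were -0.30 and 0.22. After thinning, 17 members were tested and 3 passed, 1 higher and 2 lower (17.6% against 24% of all models), with a median log2 fold change of 0.05 against 0.06 for all models.

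A joint fit of all 9 libraries tested all 110 members, because it keeps genes for their culture reads, which the choice of members made high. The 13 without a root read are among them and could not be called, so nothing is read from the share. The joint fit called 1 member higher and 15 lower in drought roots, 14.5% of the members. Of all 8690 models it called 27.8%, 1087 higher and 1333 lower. Without a model, 14 of the 97 members with a root read had drought and well-watered libraries that did not overlap (14.4%). Drought lay above in 5 and below in 9. Of all models with a root read it was 35.6%, 2163 above and 1461 below. With TMM scaling these were 3 and 10 for the members, and 1703 and 1806 for all models. Most members have fewer root reads than other models of at least 20 CPM in cultures, which follows from the choice of members. The count of called members was 9, with 3 higher and 6 lower, without drought replicate 2, which is 25.7% of the members tested then against 20.7% of all models, and the median log2 fold change was -0.24 against 0.05. Without drought replicate 1 the count was 1, lower in drought roots (2.78% of the members tested against 13.6% of all models). Without any single well-watered library it was also 1 (1.79% of the members tested). That member was higher in drought roots without well-watered replicate 1, where both calls of the main fit were lost, and lower without replicates 2 and 3. The shares of all models were 20.4%, 10.2% and 10.3% in these 3 fits.

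The larger of the 2 called differences was that of jgi|Tercla1|1267690| (393 bases, no shared read). It had 0, 0 and 0 CPM in drought roots, 14.2, 5.505 and 8.05 CPM in well-watered roots and 105, 77.0 and 76.9 CPM in cultures. It passed the filter on low counts through its well-watered libraries alone, so that a gene tested on these reads had to differ, and it was not tested under the filter of 10 reads or after thinning. Its 35 well-watered reads against none put it at least 38.0-fold lower in drought roots (edgeR adjusted p = 0.0109), or at least 21.4-fold lower without drought replicate 1. The call was lost without well-watered replicate 1 (adjusted p = 0.0606) and was kept under each other alternative that tested it, at an adjusted p of 8.41e-06 to 0.0489.

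The second was jgi|Tercla1|1139526| (729 bases, no shared read). It had 0.548, 2.82 and 2.00 CPM in drought roots, 6.75, 19.0 and 12.6 CPM in well-watered roots and 264, 199 and 211 CPM in cultures. All drought libraries lay below all well-watered libraries, on 3, 10 and 7 reads against 9, 31 and 11. This member too passed the filter on low counts through its well-watered libraries alone, so the filter favoured a difference between the root groups. It was not tested under the filter of 10 reads or after thinning. The log2 fold change was -3.02 ± 0.94 (SE; edgeR adjusted p = 0.0478). The adjusted p was 0.0503 to 0.258 when drought replicates 1 or 3 or any of the well-watered libraries was left out, 0.0566 without the filter on low counts, 0.0585 with limma-voom and 0.0598 on total reads without TMM scaling.

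**Figure D4:**
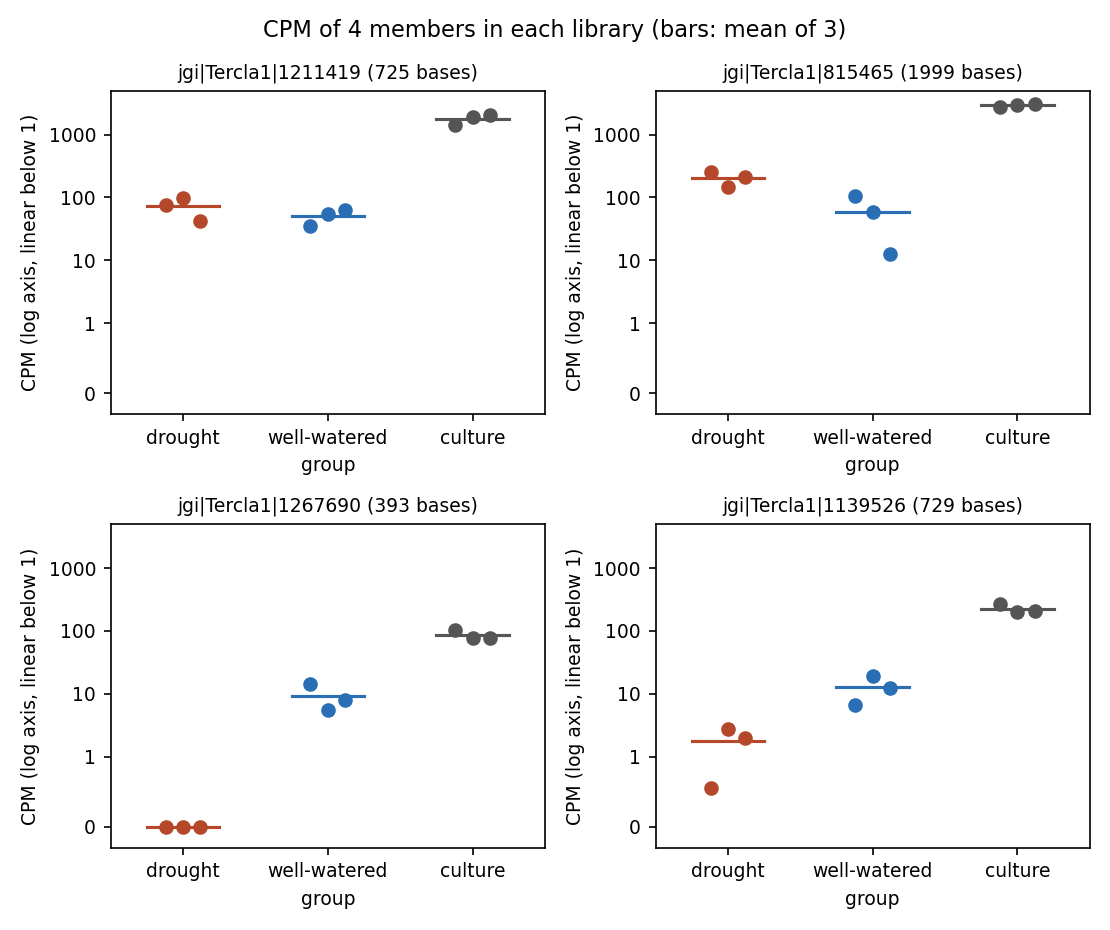
CPM of 4 members in each library (points) with the mean of 3 (bars), for drought roots, well-watered roots and cultures; the axis is logarithmic above 1 and linear below it. The upper pair has the highest level per length in cultures, and the lower pair passed the test between the root groups, with jgi|Tercla1|1267690| at 0 in all drought libraries.

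One more member stood just short of the threshold as higher in drought roots, a model of 1329 bases chosen after its values were seen. It had 113, 30.2 and 140 CPM in drought roots, 29.2, 28.1 and 28.7 CPM in well-watered roots and 447, 1063 and 1003 CPM in cultures, with a log2 fold change between the root groups of 1.58 ± 0.52 (SE; edgeR adjusted p = 0.0556). Drought replicate 2 was close to the well-watered libraries, and the other drought libraries were well above them. Near misses lay in the other direction too. Members of 1629 and 1696 bases had log2 fold changes of -2.18 ± 0.74 and -3.00 ± 1.09 (SE; edgeR adjusted p = 0.0636 and 0.0802). At an unadjusted edgeR p under 0.05, 2 members were higher and 6 lower in drought roots, the 2 called among the 6.

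Cultures differed among themselves more for the members than for other genes of at least 20 CPM. The coefficient of variation (SD over mean) of CPM across the 3 cultures had a median of 17.0% over the members and of 8.69% over all 5965 models, and ran from 0.677 to 72.3% among the members. It was 19.4% in the 75 models low in drought roots alone and 15.1% in the 107 models low in well-watered roots alone, which were also above the median of all models. Differences of 2-fold set culture replicate 1, the shallowest, apart. Culture replicate 1 was at least 2-fold above both others for 4 members (3.64%, against 0.570% of the 5965 models) and at least 2-fold below both for 8 (7.27%, against 1.49%), whereas the ratio of culture replicate 2 to replicate 3 stayed within 0.718 to 1.45 for all 110. The shares above and below were 3.74% and 10.3% of the 107 models, and 4% and 8% of the 75 models. Of all gene models with a read, which include those under 20 CPM, they were 5.26% and 12.8%. Such differences of culture replicate 1 were therefore not particular to the members.

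**Figure D5:**
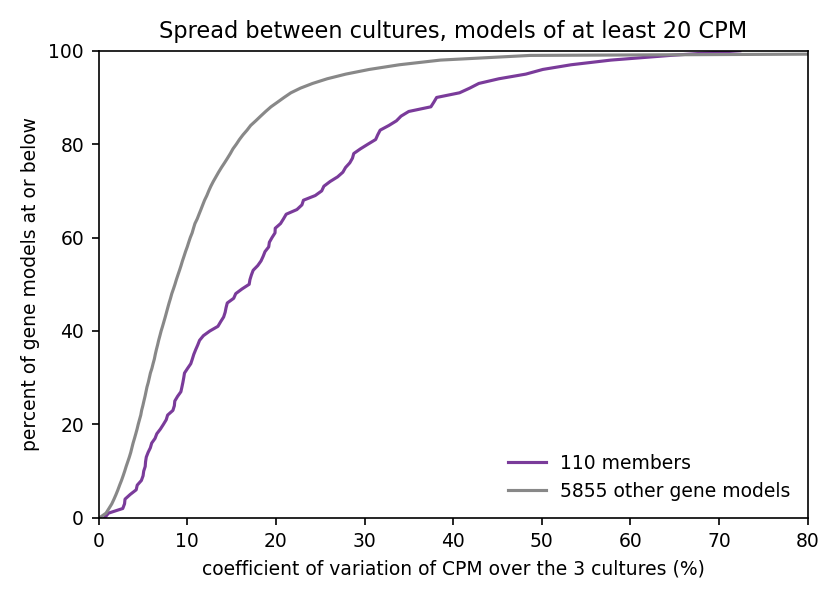
Percent of gene models (vertical axis) with a coefficient of variation over the 3 cultures at or below the value on the horizontal axis (in percent), for the 110 members and for the other gene models of at least 20 CPM in cultures. The curve of the members lies to the right, with a median of 17.0%.

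The most variable member (1315 bases) had 188, 60.6 and 58.7 CPM in cultures, and its only root reads were in well-watered replicate 2, at 1.22 CPM. The member of 4459 bases described above varied the other way, at 222, 540 and 513 CPM in cultures. Each library was also set against members chosen without it. Of the models chosen without a given root library, 85.1 to 95.1% were at least 8-fold lower in that library than the mean of cultures. Of the models chosen without a given culture, 85.0 to 93.0% were at least 8-fold higher in that culture than in both root means, the lowest being culture replicate 1. The other libraries of the same group and the means compared with were used to choose these models. High shares therefore follow in part from the choice.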

How the data were processed

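RNA from 100 mg of tissue per sample was sequenced as read pairs of 75 bases, per the labels and the design text. The submitters' processing notes list Bowtie2 2.3.0, SAMtools 1.7 and FastQC. The read counter and any use of strand were not given in the sources used here. Deposited files hold raw counts (unique and total gene reads), per the file headers, and RPKM made by the authors. Gene lengths were solved from counts and RPKM, which gave 1 whole number for each of the 11241 gene models with a read (relative tolerance 1e-06).

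Total gene reads were fitted for each pair of groups on its 6 libraries with edgeR 4.0.16 in R 4.3.3 (filterByExpr, TMM, robust quasi-likelihood F test, Benjamini-Hochberg over all models tested); standard errors come from the F statistic. The step was tested on simulated data. Alternatives were DESeq2 1.42.0, limma-voom (limma 3.58.1), other scalings and filters, a joint fit, unique reads, thinning, a replicate block, other limits in the rule and leaving out each library. Members, lists and tests were chosen with earlier results of these data known. Printed identifiers are the 2 members highest in culture RPKM, the 2 highest of those without root reads, and up to 2 called members per direction between the root groups, without overlap.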

Additional observations from a re-analysis of the deposited data

Results flagged for a closer look

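Between the watering regimes, 2 members passed the edgeR test as lower in drought roots (4.88% of the 41 tested, against 19.8% of all models). The fitted log2 fold change of drought against well-watered roots was -7.75 for jgi|Tercla1|1267690|, a value that depends on the prior count because no drought library held a read, and -3.02 for jgi|Tercla1|1139526|. The call of jgi|Tercla1|1139526| was lost in 9 of the 14 alternatives that tested it, and that of jgi|Tercla1|1267690| in 1 of 14. But both members passed the filter on low counts through their well-watered libraries alone. For jgi|Tercla1|1267690|, with no drought read, a gene tested on these reads had to differ, and for jgi|Tercla1|1139526| the filter favoured a difference. Neither was tested under the stricter filter on reads or after thinning. Nothing is therefore read from how often either call was kept.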

How the results depend on the processing

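The 110 members became 229 at 4-fold, 66 at 16-fold and 64 at a culture mean of 50 CPM; under the other alternatives they numbered 98 to 139, and 102 to 114 with a library left out. Between the root groups 2 of 41 members were called (4.88%, against 19.8% of all models). With a filter of 10 reads in every library of a group, 0 of 24 were called, against 22.2%. At an unadjusted edgeR p under 0.05, 2 were higher and 4 lower under that filter. DESeq2 called 7 members (17.1% against 24.9%) and the joint fit 16 (14.5% against 27.8%). With a library left out 1 to 9 members were called, 9 without drought replicate 2 (25.7% against 20.7%). All gene models called between the root groups numbered 1587, or 2420 in the joint fit. With a library left out they numbered 874 to 1747 (874 and 879 without well-watered replicates 2 and 3). Members read in drought roots alone, 4 in all libraries, numbered 2 to 9 with a library left out (9 without well-watered replicate 2), and those read in well-watered roots alone, 18 in all libraries, 9 to 23 (9 without well-watered replicate 2). The 13 members without a root read became 22 without well-watered replicate 2 and 4 at 50 CPM. The 14 members at 0 in drought replicate 2 became 4 at 20 reads and 3 at equal depth. Same-numbered libraries did not deviate together (correlations of -0.0178, 0.0418 and 0.0548 between the root groups across 9014 models), so the numbers are not known to pair samples. With the replicate number as a block, 3 members (7.32%) and 1335 of all models (16.6%) were called between the root groups. The edgeR adjusted p of jgi|Tercla1|1139526| was then 0.0763. Alternatives for the members read in 1 root group alone, those at 0 in drought replicate 2, those whose groups did not overlap, and members with mostly unique reads were chosen after seeing the data. The cause of these shifts was not tested. Depth limits the comparison between the root groups, for which 41 of the 110 members passed the filter on low counts.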
